A study of Mus musculus with 6 samples.

Results

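The core of the apoptosis machinery was read as 8 genes, taken from the count table by symbol and chosen with earlier results of these data known: the anti-apoptotic Bcl2, Bcl2l1 and Mcl1, the pro-apoptotic Bcl2l11, Bid and Bak1, and the initiator caspases Casp8 and Casp9. All 8 were found among the 16982 genes of the table, and all 8 passed the filter on low counts. The libraries came from C57BL/6 reprogrammable cells on day 3. These are mouse embryonic fibroblasts (MEF) infected with retroviruses for the reprogramming factors OSKM (KLF4, C-MYC, SOX2 and OCT4). There were 3 libraries of wild type (WT, Rnf20+/+) and 3 of Rnf20-/- genotype (knockout, KO). RNF20 is an E3 ligase that attaches ubiquitin to histone H2B. The methods describe Rnf20 Flox/Flox cells with a ubiquitously expressed tamoxifen-inducible Cre (Tamoxifen-cre) in which 4-OH tamoxifen induced the deletion, whereas the labels give every sample as untreated. Whether the WT cells carried the floxed alleles or the Cre, or received the drug, is not stated in the sources used here. The protocol moves infected cells onto mitomycin-C-treated MEF feeder layers after infection, and it is not stated whether the RNA of day 3 held feeder cells. The labels do not say whether the 3 samples of a genotype were separate embryos or cultures. The p-values thus measure the spread between these samples, which may be technical in WT. In KO the spread is not technical alone, since Ddx3y of the Y chromosome was counted only in KO replicate 2 (below).

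Proteins of the BCL2 family decide at the outer mitochondrial membrane whether cytochrome c is released. BCL2, BCL-XL (the long product of Bcl2l1) and MCL1 hold the membrane intact by binding BAK, BAX and the BH3-only proteins, and BIM (the product of Bcl2l11) and BID, which are BH3-only proteins, relieve this block or activate BAK and BAX directly. Released cytochrome c assembles APAF1 and caspase-9 into the apoptosome, while caspase-8 is activated at death receptors and cuts BID, which links the 2 routes.

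The members are shown first by a coding stretch known for each family, read from GENCODE M21 transcripts of GRCm38. Each of the 6 BCL2 family members held the core of the BH3 motif (a leucine, 3 residues of any kind, a glycine and an aspartate) exactly once in its longest coding sequence. The capitals mark the codons of leucine, glycine and aspartate.
Bcl2: CTCcgccgggctGGGGATgacttctct
Bcl2l1: CTGagagaggcaGGCGATgagtttgaa
Mcl1: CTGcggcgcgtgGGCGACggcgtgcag
Bcl2l11: CTGcggcggatcGGAGACgagttcaac
Bid: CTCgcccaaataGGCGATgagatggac
Bak1: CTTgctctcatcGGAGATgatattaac
The first codon shown is codon 94 of Bcl2, 90 of Bcl2l1, 194 of Mcl1, 150 of Bcl2l11, 90 of Bid and 76 of Bak1, counted from the start codon. The pattern alone does not define the family, since 13.3% of 21592 protein-coding genes held it.
The 2 caspases held the active-site motif (glutamine, alanine, cysteine, any residue and glycine), which 0.375% of these genes held, and the first codon shown is codon 378 of Casp8 and codon 321 of Casp9. The capitals mark its fixed codons.
Casp8: ttcattCAGGCTTGCcaaGGAagtaac
Casp9: ttcatcCAGGCCTGCggtGGTgagcag

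Rnf20 itself had 107, 107 and 106 CPM (the count of a gene over the library total, after TMM scaling) in WT replicates 1 to 3 and 18.7, 18.5 and 16.4 in KO replicates 1 to 3, a log2 fold change of -2.57 (SE 0.0812, adjusted p = 0.000163) in the direction of the labels. The total counts per library were 20545442 to 21746898, at which 1 count equals 0.0475 to 0.0477 CPM. KO replicate 3 stood apart from the other KO libraries. The chi-square statistic of the counts per gene was 92.4 and 101 between it and KO replicates 1 and 2, against 6.04 to 8.92 between all other pairs within a genotype. Ddx3y, a gene of the Y chromosome, had 0 counts in KO replicates 1 and 3 and 1990 to 2686 in the other 4 libraries. The summed CPM of 9 fibroblast markers was 26877 to 29262 in WT and 17585 to 32878 in KO libraries, lowest in KO replicate 3. That of 9 macrophage markers, none at 0, was 48.8 to 97.4 in WT, 82.2 and 52.8 in KO replicates 1 and 2 and 263 in KO replicate 3. The 5 epithelial markers summed to 43.8 to 46.1 in WT and to 34.1, 23.9 and 3.57 in KO replicates 1 to 3. The 5 endothelial markers summed to 48.3 to 59.0 in WT and 32.3 to 66.9 in KO libraries. The 4 pluripotency markers in the table summed to at most 2.33 CPM in any library. In bulk RNA, fewer cells of a type and less RNA per cell cannot be told apart.

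Genotypes were compared gene by gene over 13386 genes by edgeR's quasi-likelihood method, and a gene passed at a Benjamini-Hochberg adjusted p under 0.05. Of the 8 members, Bcl2l1 rose and Bcl2l11 and Casp9 fell in KO cells, and the other 5 did not pass. The share of 3 in 8 (37.5%) lies near the 33.0% of all genes tested that passed (16.4% higher and 16.6% lower), so the count itself is no result about these genes. None of the 8 met the thresholds of the study (FDR under 0.01, log2 fold change beyond 1, FPKM over 1), which 3.59% of genes met (1.50% higher and 2.08% lower). At an unadjusted p under 0.05 there were 4 of the 8 members, beside 45.6% of all genes tested, which is near that share. Past the study thresholds, DESeq2 and edgeR's exact test likewise placed 0 members. Of all genes, DESeq2 placed 411 higher and 570 lower of 14975 past them. The exact test placed 407 higher and 566 lower of 13386. Libraries of the genotypes did not overlap for 6 of the 8, 4 higher and 2 lower, against 54.8% of all genes tested (26.6% higher and 28.2% lower). The median log2 fold change of the members was 0.20, with 5 above and 3 below 0, beside -0.00032 over all genes tested.

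**Figure D1:**
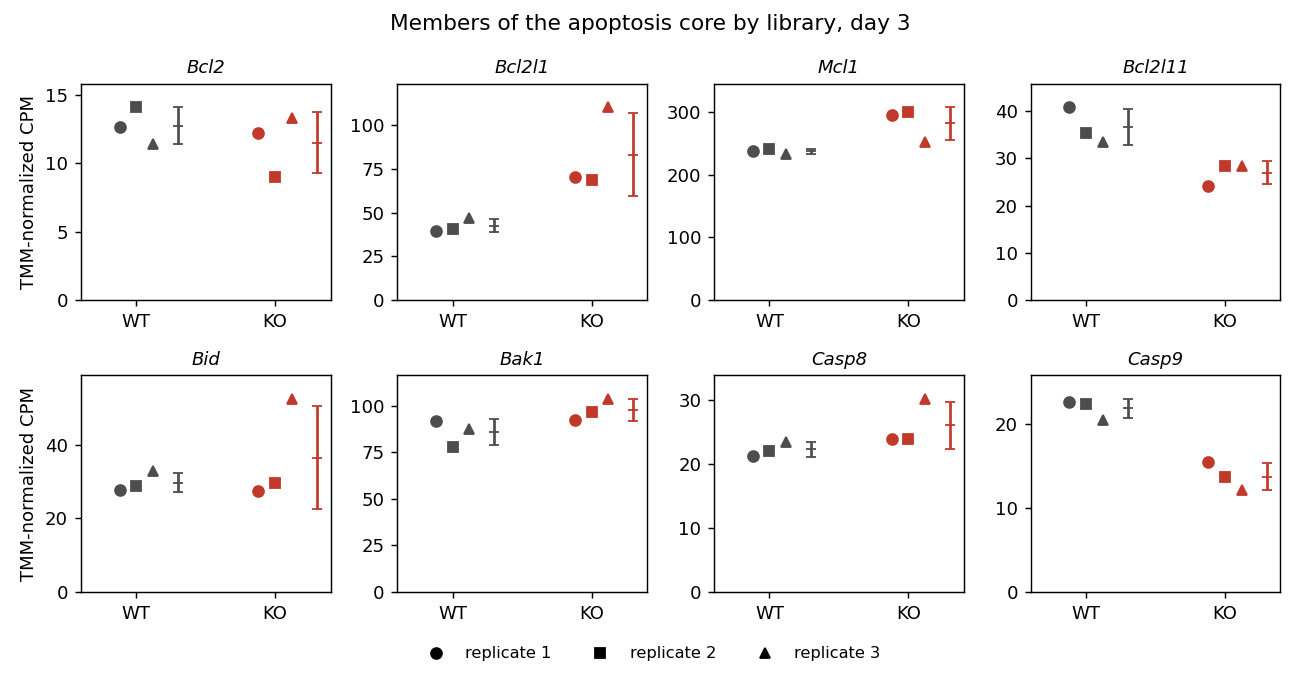
TMM-normalized CPM (vertical axes, from 0) of each member in the 3 WT (grey) and 3 KO (red) libraries, with the symbol giving the replicate and the bar the mean ± SD (n = 3). The KO libraries of Bcl2l1 (68.4 to 110.4) all lie above WT and those of Bcl2l11 and Casp9 all below, while the red triangle of KO replicate 3 stands alone for Bid at 52.6.

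Bcl2l1 encodes BCL-XL and lies on chromosome 2 of GRCm38 (152780668 to 152831728, minus strand), with no exon of another annotated gene over its own. It had 39.7, 40.8 and 46.9 CPM in WT replicates 1 to 3 and 70.5, 68.4 and 110.4 in KO replicates 1 to 3. Every KO library lay above every WT library, and KO replicate 3 lay far above the other KO libraries. The mean rose from 42.5 ± 3.89 to 83.1 ± 23.7 CPM (SD, n = 3 each), a log2 fold change of 0.97 (SE 0.197, adjusted p = 0.0139). A larger absolute change was measured in 13.5% of all genes tested. Without KO replicate 3 the log2 fold change was 0.71 (adjusted p = 5.91e-05), and without WT replicate 1, 2 or 3 the adjusted p was 0.0585, 0.0628 and 0.0516, with values of 0.92, 0.94 and 1.04. The range of the adjusted p over 16 alternatives was 4.53e-05 to 0.168. KO replicate 3 was also the library with the highest macrophage and the lowest fibroblast marker sum, and the part of these in its Bcl2l1 level was not tested.

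Mcl1 encodes a short-lived anti-apoptotic protein and lies on chromosome 3 (95658788 to 95663176, plus strand). Its libraries held 239, 240.5 and 233 CPM in WT and 295, 299.7 and 252 in KO replicates 1 to 3. The genotypes did not overlap, although KO replicate 3, the highest for Bcl2l1, was the lowest KO library here. The means were 237 ± 3.78 and 282 ± 26.4 CPM, a log2 fold change of 0.25 that did not pass (SE 0.0851, adjusted p = 0.0629). Without KO replicate 3 it was 0.33 and passed (adjusted p = 0.000416), in a fit where 48.1% of all genes tested passed. Over 16 alternatives the adjusted p of Mcl1 was 0.000416 to 0.184.

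Bcl2, the founding member of the family, lies on chromosome 1 (106538178 to 106714274, minus strand). It had 12.7, 14.1 and 11.4 CPM in WT and 12.2, 9.02 and 13.3 in KO replicates 1 to 3. The libraries overlapped, and the log2 fold change of -0.15 did not pass (SE 0.172, adjusted p = 0.535). Its sign rested on KO replicate 2, without which the value was 0.0065. Exons of Bcl2 share 558 bases with D630008O14Rik on the opposite strand, which is not among the counted genes.

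Bcl2l11 encodes BIM, a BH3-only protein that binds all of the anti-apoptotic members, and lies on chromosome 2 (128126038 to 128162547, plus strand). It had 40.9, 35.3 and 33.5 CPM in WT and 24.2, 28.3 and 28.4 in KO replicates 1 to 3. All KO libraries lay below all WT libraries, and here KO replicate 3 was close to KO replicate 2. The WT mean was 36.6 ± 3.85 and the KO mean 26.96 ± 2.43 CPM, so Bcl2l11 fell (log2 fold change -0.44, SE 0.112, adjusted p = 0.0269). The call was lost on leaving out WT replicate 1 (-0.35, adjusted p = 0.0909), WT replicate 2 (-0.47, 0.0750), WT replicate 3 (-0.50, 0.0602), KO replicate 1 (-0.36, 0.0663) or KO replicate 2 (-0.47, 0.0514). It held without KO replicate 3 (-0.48, adjusted p = 0.00415). With the replicate number as a block the adjusted p was 0.0747, and over 16 alternatives it was 0.00415 to 0.250.

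Bid encodes the BH3-only protein that caspase-8 cleaves, and lies on chromosome 6 (120891930 to 120916853, minus strand). Its CPM was 27.7, 28.8 and 32.8 in WT and 27.5, 29.6 and 52.6 in KO replicates 1 to 3. KO replicates 1 and 2 lay within or at the edge of the WT range, and KO replicate 3 lay at 1.77 times the WT mean. The log2 fold change of 0.30 did not pass (SE 0.250, adjusted p = 0.385), and without KO replicate 3 it was -0.058. In that library the macrophage markers were also highest (above), and their part in the value was not tested. Exons of Bid share 628 bases with Bcl2l13 on the opposite strand. The sources used here do not state whether the counting used strand, so reads of these genes may not have been separated.

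Bak1 encodes the membrane-permeabilizing effector BAK and lies on chromosome 17 (27019810 to 27029009, minus strand). It had 91.8, 78.0 and 87.8 CPM in WT and 92.3, 96.9 and 103.9 in KO replicates 1 to 3. The groups were set apart by a narrow gap between WT replicate 1 and KO replicate 1, and the log2 fold change of 0.19 did not pass (SE 0.0884, adjusted p = 0.148). Its exons share bases with Ggnbp1 on the opposite strand.

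Casp8, the initiator caspase of death receptors, lies on chromosome 1 (58795374 to 58847503, plus strand). It had 21.3, 22.1 and 23.5 CPM in WT and 24.0, 23.9 and 30.2 in KO replicates 1 to 3. KO replicate 3 was again the highest, and KO replicates 1 and 2 were only just above WT replicate 3. The log2 fold change was 0.22 (SE 0.119, adjusted p = 0.186) and 0.10 without KO replicate 3. A transcribed pseudogene, Gm20257, shares 4.37% of the 50-base words of Casp8 transcripts, which leaves a small part of its reads uncertain.

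Casp9, the initiator caspase of the apoptosome, lies on chromosome 4 (141793612 to 141815976, plus strand) and had the lowest adjusted p of the members. Its exons share 94 bases each with Cela2a and Ctrc on the opposite strand, which are not among the counted genes. Casp9 had 22.7, 22.5 and 20.5 CPM in WT and 15.5, 13.7 and 12.1 in KO replicates 1 to 3. The genotypes were separated by a gap wider than the range of either. The WT mean was 21.9 ± 1.17 and the KO mean 13.8 ± 1.66 CPM, so Casp9 fell (log2 fold change -0.67, SE 0.117, adjusted p = 0.00902). The call held in each of the 6 fits without 1 library, with values of -0.76 to -0.59 and adjusted p of 0.000924 to 0.0463. With a term for the presence of Ddx3y beside the genotype, in which the genotype rests on KO replicate 2 against WT, the value was -0.68 (adjusted p = 0.115, range over 16 alternatives 0.000113 to 0.115).

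That term also gave 0.69 for Bcl2l1 (adjusted p = 0.168) and -0.37 for Bcl2l11 (adjusted p = 0.250). No member passed with it in edgeR, beside 109 of the 13386 genes (0.814%). At an unadjusted p under 0.05 there were 4 of the 8 members, beside 24.5% of all genes tested. The 4 were Bcl2, at -0.50 with that term, Bcl2l1, Mcl1, at 0.34, and Casp9, but not Bcl2l11. DESeq2 and the exact test were not run with that term. In KO replicate 2, the KO library with Ddx3y counts, the CPM was 1.61 times the WT mean for Bcl2l1, 0.775 times for Bcl2l11 and 0.625 times for Casp9.

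**Figure D2:**
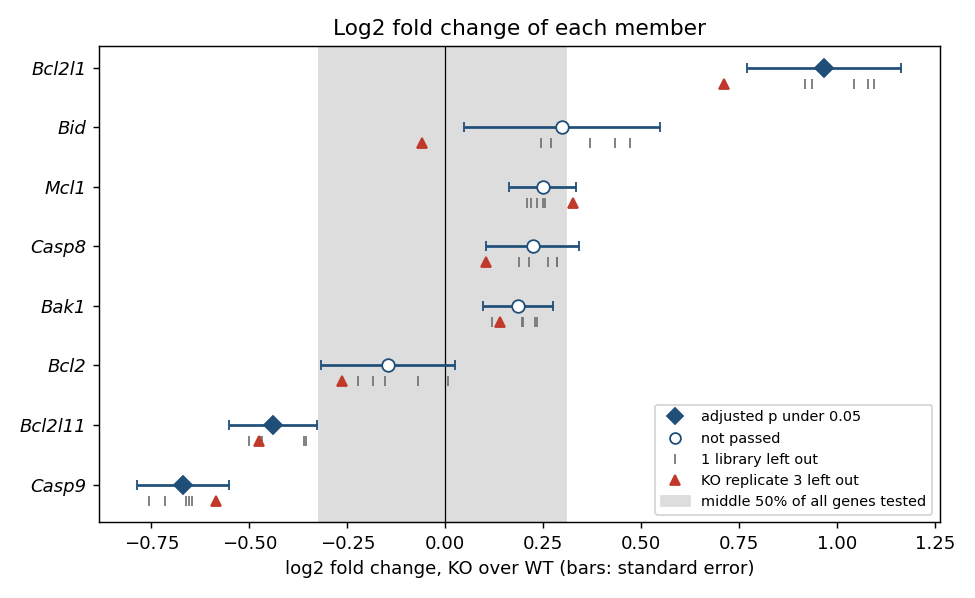
Log2 fold change of KO over WT (horizontal axis) for each member with all 6 libraries (blue, bars are standard errors, filled where the adjusted p was under 0.05) and with 1 library left out (ticks, red triangle for KO replicate 3). Bcl2l1 at 0.97, Bcl2l11 at -0.44 and Casp9 at -0.67 lie outside the grey band of the middle 50% of all genes tested (-0.32 to 0.31), and Bid moves to -0.058 without KO replicate 3.

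Levels were compared between genes per length, as CPM per kilobase of the gene lengths in the count table. In WT cells the order was Mcl1 (69.5 ± 1.11, mean ± SD, n = 3), Bak1 (36.0 ± 2.96), Bid (13.6 ± 1.24), Bcl2l1 (13.4 ± 1.22), Casp8 (8.26 ± 0.421), Bcl2l11 (7.26 ± 0.764), Casp9 (5.62 ± 0.300) and Bcl2 (1.77 ± 0.189). Bid lay just above Bcl2l1 within each WT library (12.7, 13.1 and 15.0 against 12.5, 12.8 and 14.8 in replicates 1 to 3). The WT libraries of these 2 genes overlapped, as did those of Casp8 and Bcl2l11. In KO cells Bcl2l1 (26.1 ± 7.44) stood above Bid (16.7 ± 6.36) within every library, although Bid in KO replicate 3 (24.0) exceeded Bcl2l1 in KO replicates 1 and 2 (22.2 and 21.5). The libraries of Bid and Bcl2l1 thus overlapped, and otherwise the order of the means was that of WT, with Bcl2l11 at 5.35 ± 0.483, Casp9 at 3.53 ± 0.426 and Bcl2 at 1.60 ± 0.311. On the scale of the deposited FPKM, Bcl2l1 (19.7 ± 2.83) was above Bid (14.6 ± 1.47) and Bcl2l11 (10.9 ± 0.962) above Casp8 (9.74 ± 0.444) already in WT cells, so the order of these neighbours differed between the scales.

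The 3 anti-apoptotic transcripts were added per length in each library, a sum formed after their values were seen and given without a test. It was 84.1, 85.2 and 84.6 CPM per kilobase in WT and 110.2, 110.4 and 110.2 in KO replicates 1 to 3. The KO libraries were thus close in the sum while they differed in its parts. Mcl1 made up 83.1%, 82.6% and 80.7% of it in WT and 78.3%, 79.4% and 66.8% in KO libraries, and Bcl2l1 14.8%, 15.1% and 17.4% in WT and 20.1%, 19.5% and 31.5% in KO libraries. In deposited FPKM the sums were 111, 111 and 114 in WT and 146, 149 and 142 in KO libraries, which lie further apart within KO.

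**Figure D3:**
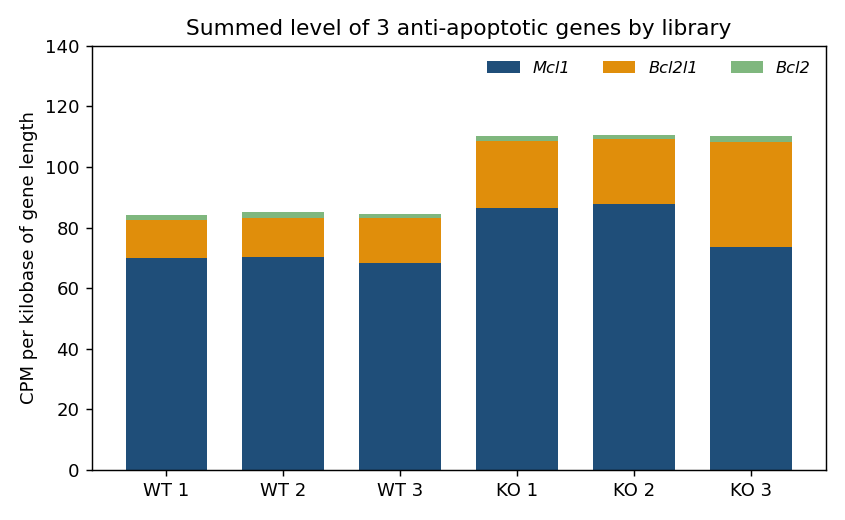
Stacked level of Mcl1, Bcl2l1 and Bcl2 in each library (vertical axis, CPM per kilobase of gene length, from 0), with 1 bar per library and no replicate error. The WT bars reach 84.1 to 85.2 and the KO bars 110.2 to 110.4, and the Bcl2l1 part is largest in KO replicate 3.

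Ratios within a library, also on the scale per length and given as a description, set the members against each other without the library size. They were not planned in advance. Bcl2l1 stood at 1.54, 1.83 and 2.22 times Bcl2l11 in WT replicates 1 to 3 and at 4.62, 3.82 and 6.16 times in KO replicates 1 to 3. The ratio of Mcl1 to Bcl2l11 was 8.60, 10.03 and 10.3 in WT and 18.0, 15.6 and 13.1 in KO libraries. Both ratios were higher in every KO library than in any WT library. The separate values fix this. Every KO library lay above WT for Bcl2l1 and Mcl1 and below WT for Bcl2l11. The ratio of Bid to Bcl2l11, both pro-apoptotic, was 1.56, 1.87 and 2.25 in WT and 2.62, 2.40 and 4.27 in KO libraries. It was without overlap too, so the separation was not particular to the anti-apoptotic members. Casp8 stood at 1.36, 1.42 and 1.65 times Casp9 in WT and at 2.24, 2.52 and 3.59 times in KO libraries. This was again without overlap, which the separate values of Casp8 and Casp9 also fix. In deposited FPKM the ratios of Bcl2l1 to Bcl2l11, Mcl1 to Bcl2l11 and Casp8 to Casp9 were without overlap too. Their means were 1.82 and 4.58, 8.30 and 14.2, and 1.43 and 2.71 in WT and KO cells.

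Promoter windows of the 3 members that passed are shown from RefSeq (GRCm38.p6), each with 250 bases before and 50 after the start that matches the 5′ end of the GENCODE gene. They were searched on both strands for GGGCGG (GC box), GGGNGTGGC (a KLF pattern), CACGTG (E-box, the MYC pattern), ATGCAAAT (octamer, the OCT4 pattern), TGACTCA (AP-1), TTCNNNGAA (STAT) and TTTCCCGC (E2F). Capitals mark matches.
Bcl2l1 promoter, chr2:152831679-152831978, minus strand: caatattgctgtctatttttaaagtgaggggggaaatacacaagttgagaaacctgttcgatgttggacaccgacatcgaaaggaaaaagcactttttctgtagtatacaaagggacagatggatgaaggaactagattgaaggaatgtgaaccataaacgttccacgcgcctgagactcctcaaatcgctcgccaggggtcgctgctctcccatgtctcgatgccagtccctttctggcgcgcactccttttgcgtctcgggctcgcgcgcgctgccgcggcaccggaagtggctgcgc
Bcl2l11 promoter, chr2:128125788-128126087, plus strand: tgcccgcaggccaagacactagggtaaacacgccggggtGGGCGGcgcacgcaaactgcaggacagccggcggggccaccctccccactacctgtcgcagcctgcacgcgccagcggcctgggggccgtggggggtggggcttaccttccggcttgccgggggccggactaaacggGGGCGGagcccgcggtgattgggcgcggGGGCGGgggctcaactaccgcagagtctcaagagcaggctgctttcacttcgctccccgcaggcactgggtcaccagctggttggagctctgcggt
Casp9 promoter, chr4:141793362-141793661, plus strand: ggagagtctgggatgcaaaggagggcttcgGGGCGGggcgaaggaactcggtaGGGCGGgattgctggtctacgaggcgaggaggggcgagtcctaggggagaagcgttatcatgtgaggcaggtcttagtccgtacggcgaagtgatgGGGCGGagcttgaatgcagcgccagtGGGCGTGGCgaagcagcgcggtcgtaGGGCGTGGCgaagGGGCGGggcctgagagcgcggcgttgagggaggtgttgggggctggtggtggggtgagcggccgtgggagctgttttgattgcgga
Casp9 held 4 GC boxes and 2 KLF patterns, which did not overlap, and Bcl2l11 held 3 GC boxes. The window at the other start of Bcl2l11 also held 3. Among the members that did not pass, Bcl2, Bid and Mcl1 held 7, 3 and 1 GC boxes, and Bak1 and Casp8 held 0. The window of Bcl2l1 held no match to any of the 7 patterns, nor did the windows at its other 2 starts. Of 32851 promoter windows 35.7% held a GC box and 5.76% the KLF pattern. These are matches of letters and not sites, and the files do not say which start was used.

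Over the 6 libraries, the log2 CPM of each member was set against 9325 other genes with a mean CPM of at least 10, and the 2 with the highest Pearson r are named, as a description. They were Abhd4 (r = 0.999) and Chmp3 (0.998) for Bcl2l1, Mark3 (0.998) and Spcs2 (0.997) for Mcl1, and Ndufa12 (0.990) and Fundc1 (0.965) for Bcl2. For the pro-apoptotic members they were Tmem173 (0.996) and Eef1akmt1 (0.988) for Bcl2l11, Mob3a (0.997) and Mfge8 (0.995) for Bid, and Lgals1 (0.995) and Gdpd5 (0.989) for Bak1. Gga3 (0.995) and Elob (0.995) were nearest to Casp8, and Tecpr2 (0.999) and Coq3 (0.998) to Casp9. The points share the genotype and the distance of KO replicate 3.

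The other genes of the pathway were read as 5 lists. They held 67 symbols, of which March5 and Marchf5 name the same gene. Of the 52 genes tested, 10 rose and 7 fell in KO cells (32.7%, beside 33.0% of all genes), with a median log2 fold change of 0.074. DESeq2 gave 14 and 7. Over all genes tested 33.7% passed in DESeq2 and 33.1% in the exact test, and 45.6% had an unadjusted p under 0.05 in edgeR. These shares also belong beside the counts per list below. All of these tests rest on the same 6 libraries. Without KO replicate 3 there were 17 and 11, beside 48.1% of all genes that passed in that fit. Without WT replicate 1, 2 or 3 there were 4, 4 and 2 that rose and 4, 4 and 3 that fell. The shares of all genes in those fits were 14.3%, 11.9% and 10.3%. With the Ddx3y term 1 rose, Pmaip1 (1.41, adjusted p = 0.0435).

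Of the other BCL2 family genes 12 were tested, of which 3 rose and 4 fell (3 and 4 at an unadjusted p under 0.05 and in the exact test, and 5 and 4 in DESeq2). Bmf, a BH3-only gene, fell furthest, with 19.5, 20.3 and 19.6 CPM in WT and 4.68, 5.56 and 3.14 in KO replicates 1 to 3 (log2 fold change -2.15, SE 0.203, adjusted p = 0.00261). Pmaip1, which encodes NOXA, the BH3-only partner of MCL1, rose from 17.4, 16.3 and 16.6 to 67.4, 44.6 and 85.8 CPM (1.98, SE 0.229, adjusted p = 0.00357). Both met the thresholds of the study. Bbc3, which encodes the BH3-only protein PUMA, rose by 0.60 (adjusted p = 0.00739), whereas Bad, another BH3-only gene, had a value of 0.11 that did not pass (adjusted p = 0.520). Bnip3l, a mitophagy receptor, rose by 0.42 (adjusted p = 0.0485). Bok, an effector related to BAK and BAX, fell by 0.60 (adjusted p = 0.0367), Bcl2l12 fell by 0.85 (adjusted p = 0.00348) and Bcl2l13 fell by 0.34 (adjusted p = 0.0177). The effector Bax had a log2 fold change of 0.24 (adjusted p = 0.134) with overlapping libraries, and Bcl2l2, the anti-apoptotic BCL-W, one of -0.068 (adjusted p = 0.522).

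Among the other caspases 6 were tested, and 1 fell and 0 rose in edgeR (at an unadjusted p under 0.05, 2 fell and 0 rose, and DESeq2 and the exact test each gave 1 and 0). Casp2, an initiator caspase, fell from 36.6, 37.7 and 36.7 to 25.1, 21.98 and 16.7 CPM (log2 fold change -0.80, SE 0.148, adjusted p = 0.0106). Casp4, an inflammatory caspase, was at 8.67 CPM in KO replicate 3 and at 0.522 to 1.10 in the other 5 libraries (adjusted p = 0.152). Of the 13 genes of the apoptosome, mitochondrial release and the inhibitor of apoptosis (IAP) family, 1 fell and 0 rose in edgeR (3 and 0 at an unadjusted p under 0.05, and 1 and 0 in DESeq2 and in the exact test). It was Birc5, which encodes survivin and also acts in mitosis, at 41.7, 37.8 and 42.6 CPM in WT and 16.5, 14.7 and 7.10 in KO libraries (-1.67, SE 0.288, adjusted p = 0.00872). Apaf1, the scaffold of caspase-9, had a log2 fold change of 0.087 (adjusted p = 0.707), Cycs, cytochrome c, of 0.17 (adjusted p = 0.110) and Xiap, the inhibitor of caspase-9, of -0.21 (adjusted p = 0.111).

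Of the genes of death receptor signalling 12 were tested, of which 2 rose and 1 fell (4 and 2 at an unadjusted p under 0.05, 4 and 1 in DESeq2, and 3 and 1 in the exact test). Tnfrsf10b, the TRAIL receptor, rose from 73.4, 53.1 and 57.4 to 92.7, 121 and 130.4 CPM (log2 fold change 0.90, SE 0.169, adjusted p = 0.0110) and Ripk1 rose by 0.27 (adjusted p = 0.0231). Cradd, the adaptor of caspase-2, fell by 0.81 (adjusted p = 0.0409). Pidd1, the other partner of caspase-2 in the list, had a value of 0.46 that did not pass (adjusted p = 0.0593), with every KO library above every WT library. Fas was at 22.1 and 25.02 CPM in KO replicates 1 and 2 and at 100.4 in KO replicate 3, against 13.7 to 17.3 in WT (adjusted p = 0.0648). Fadd and Cflar, the adaptor and the inhibitor of caspase-8, had values of -0.32 (adjusted p = 0.0804) and 0.22 (adjusted p = 0.248). Of 9 tested regulators of MCL1 turnover and of BIM 5 rose and 0 fell in edgeR (55.6%, beside 33.0% of all genes). The counts were the same at an unadjusted p under 0.05, in DESeq2 and in the exact test. The list as a set was not tested. Those that rose included Dynll2, which tethers BMF (0.75, adjusted p = 0.0218), and Usp9x, the deubiquitinase of MCL1 (0.49, adjusted p = 0.0112). The others that rose were the ligases Fbxw7 (0.39, adjusted p = 0.0117) and March5 (0.36, adjusted p = 0.0181), and Foxo3, a transcription factor of Bcl2l11 (0.29, adjusted p = 0.0210).

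**Figure D4:**
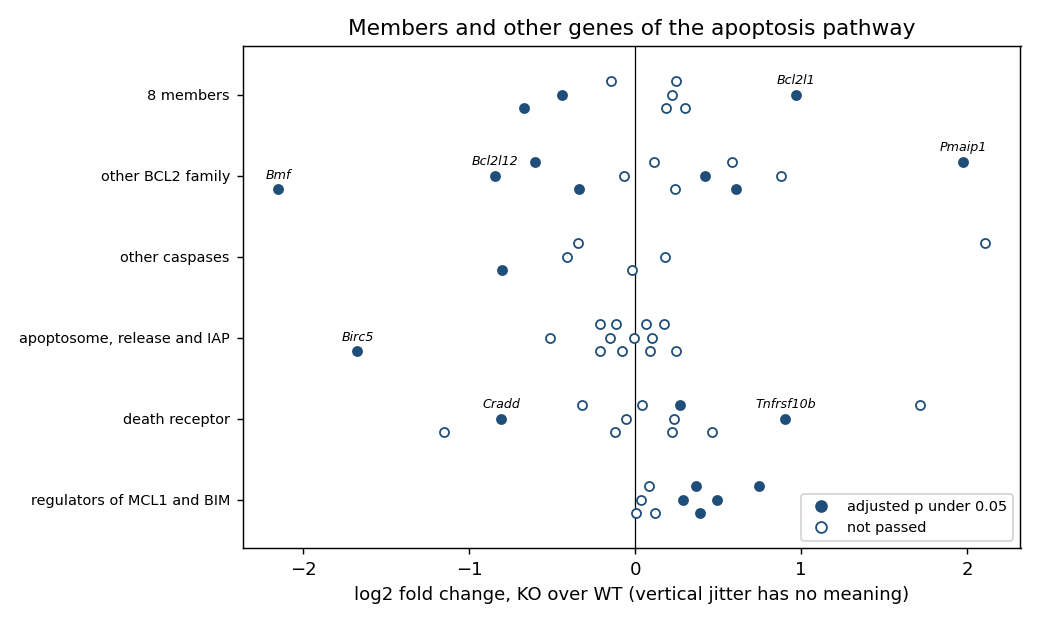
Log2 fold change of KO over WT (horizontal axis) for the 8 members and for the tested genes of 5 other lists of the pathway, with 1 point per gene, filled where the adjusted p was under 0.05. Bmf at -2.15, Birc5 at -1.67 and Pmaip1 at 1.98 lie beyond every member. All 9 regulators lie above 0, with Foxo1 at 0.0030 and Dynll1 at 0.034 close to it.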

How the data were processed

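RNA of 3 WT and 3 KO samples was sequenced by the authors as TruSeq stranded mRNA libraries and aligned to GRCm38/mm10 with HISAT2 2.1.0. The authors deposited whole-number counts per gene with gene lengths, without normalization (counting program not given in the sources used here), and FPKM from Cufflinks 2.1.1 for 12633 genes. Their fold changes and FDR were not used.

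Here R 4.3.3 and edgeR 4.0.16 (TMM, filterByExpr, quasi-likelihood test, no covariates, Benjamini-Hochberg over 13386 genes) were applied to all counts. SEs were derived from the fold change and its F statistic. Members, lists and the naming rule (members; Rnf20; per list the genes that passed, with values for the 4 largest changes each way; the 2 nearest genes per member, predicted loci left out) were chosen with earlier results of these data known. Alternatives were RLE, library size, DESeq2 1.42.0, the exact test, 2 count filters, limma 3.58.1 on log2(FPKM + 1) and log2(FPKM + 0.1), a replicate block, each library left out and, added after seeing the data, a Ddx3y term. Genes named that did not pass, such as Fas and Apaf1, and the value of Foxo3 were chosen after their values were seen. The scripts were tested on simulated data, 3 KO against 3 WT libraries. The edgeR test called 5.21% of 96 genes with a log2 change of 0.5 and 50% of 100 genes with a change of 1. Of 13217 unchanged genes it called 0.0227%. Far more genes passed in the real data, so these shares need not hold there. A gene that did not pass is thus not shown to be unchanged. Coding stretches were found by translating GENCODE M21 transcripts. Counts cannot separate isoforms or PCR duplicates.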

Additional observations from a re-analysis of the deposited data

How the results depend on the processing

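Over the 8 members and 16 alternatives, 111 of 128 values kept their direction and their side of the adjusted p of 0.05, 12 lost the call, 2 gained it and 3 changed sign. With 1 library left out, the log2 fold change ranged from -0.26 to 0.0065 for Bcl2, from 0.71 to 1.10 for Bcl2l1, from 0.21 to 0.33 for Mcl1, from -0.50 to -0.35 for Bcl2l11 and from -0.058 to 0.47 for Bid. The genes that passed ranged from 694 to 3230 higher and from 702 to 3280 lower, those past the study thresholds from 0 to 295 higher and from 1 to 490 lower, and the other pathway genes from 2 to 17 higher and from 3 to 11 lower, the highest counts being those without KO replicate 3 and the lowest those without WT replicate 3 for genes that passed. Fits without a library have fewer samples.

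DESeq2 gave 0.25 for Mcl1 with a call, and 411 higher and 570 lower genes past the study thresholds, the exact test 407 and 566, and limma on log2(FPKM + 1) 123 higher, where the main fit gave 201 and 279. With the Ddx3y term, added after seeing the data, 80 genes were higher and 29 lower, 1 and 0 were past the study thresholds, and 1 and 0 other pathway genes passed (3280 genes had an unadjusted p under 0.05). It gave 0.69 for Bcl2l1, -0.37 for Bcl2l11 and -0.68 for Casp9, each without a call, and -0.0093 for Bid. With that term the genotype value rests on KO replicate 2 against WT (above). The cause of the lost calls and of the shifts in the other fits was not tested.

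The replicate numbers of the labels were checked for pairing. Deviations of same-numbered libraries from their genotype means correlated at -0.066, 0.037 and 0.011. Between libraries of different numbers the values were -0.069 to 0.072. With 3 libraries per genotype, and KO replicate 3 far from the other KO libraries, this check cannot decide whether the samples were paired. With the replicate block 1385 genes were higher, and 0 and 0 were past the study thresholds in edgeR (5552 had an unadjusted p under 0.05). In that fit 5 and 4 other pathway genes passed, beside 21.5% of all genes tested. Bcl2l11 stood at -0.44 without a call.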
